A study of Mus musculus with 8 samples.

Results

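The CXC chemokine system was followed through 9 genes, chosen by name from the 18193 named genes on the arrays. They comprised the neutrophil-attracting ligands Cxcl1, Cxcl2, Cxcl3 and Cxcl5, the interferon-inducible ligands Cxcl9, Cxcl10 and Cxcl11, the membrane-bound ligand Cxcl16 and the receptor Cxcr4. A probe set counted when the platform annotation gave it a single gene symbol, which left 14 of the 45101 probe sets for these genes. All 9 genes passed the filter on low values, as did 12540 of all genes.

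CXC chemokines are small secreted proteins that guide leukocytes along a gradient. Cxcl1, Cxcl2, Cxcl3 and Cxcl5 act through Cxcr2 and draw neutrophils. Macrophages make Cxcl1, Cxcl2 and Cxcl3 through NF-kappaB when TLR4 senses lipopolysaccharide (LPS). Cxcl9, Cxcl10 and Cxcl11 act through Cxcr3 on activated T and NK cells, and interferons induce them. Cxcl16 is held at the cell surface until a protease sheds it and binds Cxcr6, and Cxcr4 is the receptor for Cxcl12.

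The arrays measured total RNA of mouse peritoneal macrophages, recruited by an injection of thioglycollate in both genotypes. The cells were Zc3h12a-/-, labelled Zc3h12a KO and called KO here, or wild type (WT), and the comparison addressed how loss of Zc3h12a alters the response to LPS. The gene product, Regnase-1, cuts and destabilises mRNAs of inflammatory mediators. Each genotype was sampled unstimulated (0 h) and after 1, 2 and 4 h of 100 ng/ml LPS, with 1 Affymetrix array for each of the 8 combinations, so no group had a replicate. The labels give the strain only as the genotype, and no age, sex or number of mice, nor whether animals were pooled. Every level below is a log2 RMA value of a probe set, and every difference is on that log2 scale unless a fold is given.

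Macrophage markers, 7 of 7 measured, had a log2 summed level of 14.73 to 15.02 in KO and 14.78 to 15.01 in WT cells. Lyz2, Csf1r and Cd68 carried most of that sum, while Itgam lay between 5.08 and 6.70. In limma 2 of the 7 were higher and 1 lower in KO cells, beside 4.75% and 8.72% of all genes. These, named after their values were seen, were Adgre1 (0.71), Itgam (0.90) and Fcgr1 (-0.87). Array medians lay between 3.14 and 3.21, and array pairs correlated at 0.933 to 0.988 over all probe sets. The highest bacterial control probe set gave each array's background, between 2.96 and 3.26. The brighter Zc3h12a probe set read 6.73, 7.70, 8.75 and 8.50 at 0, 1, 2 and 4 h in KO cells, against 6.12, 8.02, 8.87 and 8.57 in WT cells. It was not lower in the arrays labelled KO at 0 h, and its place relative to the deleted part is not known here, so the labels could not be checked with it. Every direction between genotypes below rests on the labels alone.

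The ligands of chromosome 5 lie in 2 groups of near neighbours and differed in how early LPS raised them. Sequences before the start sites are shown as a description, and their part in that timing was not tested. In RefSeq GRCm38.p6, Cxcl1 and Cxcl2 are neighbours, as are Cxcl10 and Cxcl11, and only Art3 lies between Cxcl9 and Cxcl10. Cxcl16 lies on chromosome 11 and Cxcr4 on chromosome 1. Cxcl11 is annotated there as a transcribed pseudogene, and the labels do not say whether these mice carry that allele. The RefSeq table held a start-site window for 6 of the 9 genes. The 250 bases before the start are given 5′ to 3′ for Cxcl1 (chr5:90890995-90891244, plus strand), Cxcl2 (chr5:90903649-90903898, plus strand), Cxcl3 (chr5:90785851-90786100, plus strand), Cxcl9 (chr5:92328080-92328329, minus strand) and Cxcl10 (chr5:92348890-92349139, minus strand). Capitals mark matches, on either strand, to the kappaB-like letters GGGNNNTTCC or to the ISRE-like letters GAAANNGAAA, named after the interferon-stimulated response element.
Cxcl1: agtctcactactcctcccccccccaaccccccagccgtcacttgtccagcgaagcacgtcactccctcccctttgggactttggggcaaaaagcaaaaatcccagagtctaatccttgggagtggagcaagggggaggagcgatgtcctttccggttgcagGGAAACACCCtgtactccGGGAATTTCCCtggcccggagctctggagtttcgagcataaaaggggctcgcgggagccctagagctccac
Cxcl2: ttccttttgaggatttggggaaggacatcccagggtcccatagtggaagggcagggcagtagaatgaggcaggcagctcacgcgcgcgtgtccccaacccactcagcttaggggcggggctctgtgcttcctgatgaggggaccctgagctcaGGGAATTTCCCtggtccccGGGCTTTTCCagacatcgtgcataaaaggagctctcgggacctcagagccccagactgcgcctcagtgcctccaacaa
Cxcl3: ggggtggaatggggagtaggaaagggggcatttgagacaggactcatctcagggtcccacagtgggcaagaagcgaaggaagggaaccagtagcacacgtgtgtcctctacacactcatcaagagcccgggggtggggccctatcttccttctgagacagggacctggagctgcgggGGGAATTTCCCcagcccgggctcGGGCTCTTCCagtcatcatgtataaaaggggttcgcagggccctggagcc
Cxcl9: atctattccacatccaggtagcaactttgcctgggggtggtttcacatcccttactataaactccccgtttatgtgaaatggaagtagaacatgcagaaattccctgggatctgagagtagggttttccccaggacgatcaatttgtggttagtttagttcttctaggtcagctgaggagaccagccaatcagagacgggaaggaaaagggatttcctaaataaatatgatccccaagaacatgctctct
Cxcl10: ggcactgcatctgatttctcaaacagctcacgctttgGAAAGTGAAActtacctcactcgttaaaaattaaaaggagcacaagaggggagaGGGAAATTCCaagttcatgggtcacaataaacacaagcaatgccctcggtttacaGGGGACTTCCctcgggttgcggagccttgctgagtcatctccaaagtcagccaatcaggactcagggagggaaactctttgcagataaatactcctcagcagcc

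The longest run of letters in capitals shared by the Cxcl1, Cxcl2 and Cxcl3 windows was GGGAATTTCCC, which 14 of 32817 windows of the same length held (0.0427%). It holds overlapping kappaB-like matches on both strands, at -71 to -62 and -70 to -61 relative to the Cxcl1 start, -97 to -88 and -96 to -87 for Cxcl2, and -73 to -64 and -72 to -63 for Cxcl3. Each of these windows held a further kappaB-like match, at -89 to -80 in Cxcl1, -78 to -69 in Cxcl2 and -50 to -41 in Cxcl3. The Cxcl10 window held kappaB-like matches at -159 to -150 and -104 to -95 and an ISRE-like match at -213 to -204. A kappaB-like match stood in 1527 of all windows (4.65%) and an ISRE-like match in 974 (2.97%). Neither set of letters stood in the Cxcl9 and Cxcr4 windows, which says only that these letters are not in this window. The matches describe the sequence only, and binding was not measured here.

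LPS raised the RNA of 7 of the 8 ligands and lowered that of the receptor Cxcr4, and the genes differed in when they moved. On the probe sets used, Cxcl1, Cxcl2 and Cxcl10 were 75.8-fold to 115-fold higher at 1 h. Cxcl3 rose most between 1 and 2 h, and Cxcl9 and Cxcl11 first passed the test at 2 h. Cxcl16 rose by smaller steps throughout. In limma with genotype as a block, 5 genes rose and 0 fell at 1 h, beside 3.85% of all tested genes that rose and 6.62% that fell. At 2 h 7 rose and 1 fell, beside 12.0% and 29.8% of all genes, and at 4 h again 7 rose and 1 fell, beside 14.4% and 29.4%. The median difference of the 9 genes was 0.74 at 1 h, 3.30 at 2 h and 5.58 at 4 h, against -0.09, -0.16 and -0.12 over all genes.

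**Figure D1:**
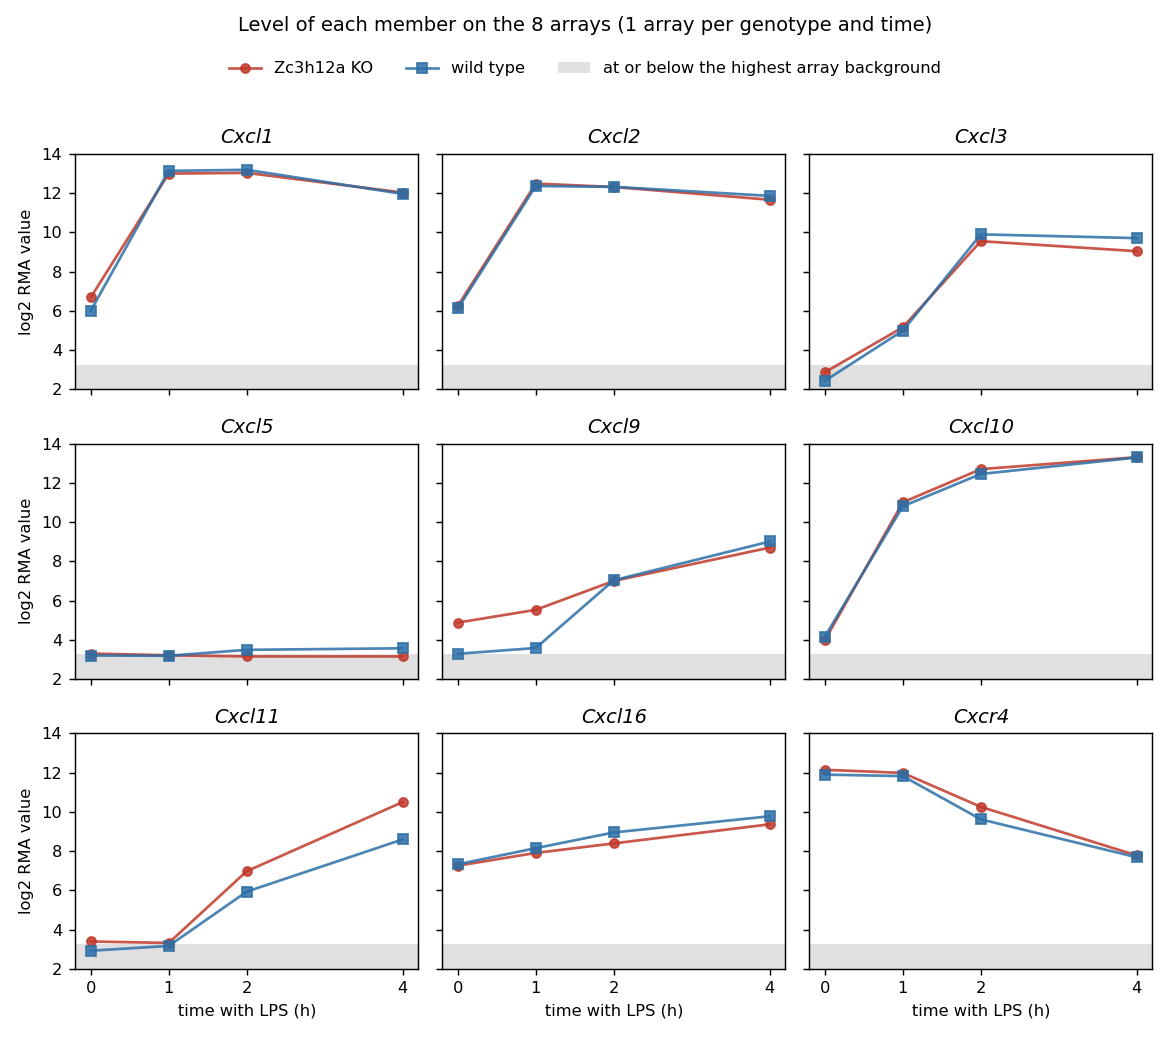
Log2 RMA level of the 9 genes (vertical axis) at 0, 1, 2 and 4 h of LPS (horizontal axis), 1 point per array, KO and WT as separate lines, on the probe set used for each gene. The grey band covers levels at or below the highest array background. Cxcl1 and Cxcl2 peak by 2 h, Cxcl9, Cxcl10, Cxcl11 and Cxcl16 are highest at 4 h in both genotypes, Cxcl5 stays close to the band, and Cxcr4 falls to 7.78 in KO and 7.68 in WT cells at 4 h.

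Among the neutrophil-attracting ligands, Cxcl1 had log2 levels of 6.68, 12.99, 13.03 and 12.03 at 0, 1, 2 and 4 h in KO cells, against 6.0, 13.13, 13.19 and 11.96 in WT cells. All 6 stimulated arrays lay above both unstimulated ones, and the 4 h arrays lay below those of 1 and 2 h in both genotypes. The difference from 0 h was 6.72 ± 0.22 (SE, 8 arrays) at 1 h, or 106-fold (limma, adjusted p = 2.57e-05), and the level was 109-fold higher at 2 h and 50.4-fold higher at 4 h. Between 1 and 2 h the difference was 0.05 (adjusted p = 0.908), and between 2 and 4 h the level fell by 1.11 ± 0.22 (adjusted p = 0.0148). Without the KO 4 h, WT 2 h or WT 4 h array this last adjusted p was 0.0925, 0.0953 or 0.0814. The difference at 1 h was 7.12 with all Cxcl1 probe sets averaged. It was 7.38 on the probe set that does not match several transcripts.

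Cxcl2 had log2 levels of 6.24, 12.48, 12.31 and 11.66 in KO cells at the same times, against 6.12, 12.36, 12.32 and 11.86 in WT cells. The genotypes were within 0.20 of each other at every time, while the times lay up to 6.24 apart. Cxcl2 was 75.8-fold higher at 1 h (6.24 ± 0.12, adjusted p = 5.59e-06), 70.3-fold at 2 h and 47.8-fold at 4 h. It fell by 0.56 ± 0.12 between 2 and 4 h (limma, adjusted p = 0.0249), with an adjusted p of 0.114, 0.132 or 0.120 without the KO 2 h, KO 4 h or WT 2 h array. Centring the arrays on housekeeping genes put that adjusted p at 0.0503. Of the 9 housekeeping genes measured, 3 were themselves called lower at 2 h and 4 at 4 h, and 0 higher at either time. The shares of all genes called lower were 29.8% and 29.4%.

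Cxcl3 started at background in both genotypes and came up later than Cxcl1 and Cxcl2. Its log2 levels were 2.86, 5.16, 9.55 and 9.04 in KO cells, against 2.43, 4.99, 9.90 and 9.70 in WT cells. Since the 0 h arrays give only a bound, Cxcl3 was at least 4.18-fold higher at 1 h (limma, adjusted p = 0.00294), at least 105-fold at 2 h and at least 82.2-fold at 4 h. Between 1 and 2 h it rose by 4.65 ± 0.26 (adjusted p = 3.18e-04), an interval in which the Cxcl1 and Cxcl2 differences were 0.05 and -0.11 and did not pass the test. Between 2 and 4 h the Cxcl3 difference was -0.35 ± 0.26 (adjusted p = 0.419).

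Cxcl5, also a Cxcr2 ligand, had log2 levels of 3.30, 3.21, 3.15 and 3.15 in KO cells, against 3.20, 3.18, 3.49 and 3.57 in WT cells. The KO arrays at 2 and 4 h were at or below background, and the others were close to it. Its differences from 0 h were -0.05, 0.07 and 0.11 at 1, 2 and 4 h, with adjusted p of 0.875, 0.746 and 0.618 (limma), and none passed. With the arrays centred on housekeeping genes, which put the all-gene median at 0.34, the 4 h difference was 0.51 and passed (adjusted p = 0.0401). Relative to the all-gene median the 4 h difference was 0.23 as deposited and 0.17 after that centring.

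Of the interferon-inducible ligands, Cxcl10 responded as early as Cxcl1 and kept rising. It had log2 levels of 3.98, 11.01, 12.70 and 13.31 in KO cells, against 4.15, 10.81, 12.45 and 13.29 in WT cells, with each later array above all earlier ones of its genotype. It was 115-fold higher at 1 h (6.84 ± 0.14, limma, adjusted p = 5.59e-06), 364-fold at 2 h and 603-fold at 4 h (adjusted p = 3.85e-06). The steps of 1.67 between 1 and 2 h (adjusted p = 8.84e-04) and 0.73 between 2 and 4 h (adjusted p = 0.014) both passed, and the later step had an adjusted p of 0.0680 to 0.0946 without the KO 4 h, WT 2 h or WT 4 h array.

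Cxcl9 and Cxcl11 did not pass the test at 1 h, with differences of 0.47 ± 0.56 (limma, adjusted p = 0.657) and 0.08 ± 0.39 (adjusted p = 0.917). Cxcl9 on its brighter probe set had log2 levels of 4.88, 5.53, 7.0 and 8.70 in KO cells, against 3.29, 3.58, 7.03 and 9.01 in WT cells. It was 7.66-fold higher at 2 h (2.94 ± 0.56, adjusted p = 0.00765) and 27.4-fold at 4 h (4.77 ± 0.56, adjusted p = 8.27e-04). The call at 2 h was lost without the WT 0 h array (adjusted p = 0.0655) or the WT 2 h array (0.0502), and with all probe sets of a gene averaged the difference was 1.61 at 2 h and 2.80 at 4 h. The dimmer Cxcl9 probe set was above background only in WT cells at 4 h, where it read 4.23.

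Cxcl11 came up in steps of like size. Its brighter probe set had log2 levels of 3.39, 3.32, 6.97 and 10.50 in KO cells, against 2.92, 3.16, 5.93 and 8.60 in WT cells, where the 0 h array was at background. It was 9.82-fold higher at 2 h (3.30 ± 0.39, limma, adjusted p = 0.00121) and 83.9-fold at 4 h (6.39 ± 0.39, adjusted p = 6.35e-05), with WT cells alone at least 46.5-fold higher at 4 h than at 0 h. The rise of 3.21 between 1 and 2 h (adjusted p = 0.00316) was followed by a similar one of 3.09 between 2 and 4 h (adjusted p = 0.00307). Averaged over both probe sets the difference from 0 h was 1.85 at 2 h and 3.70 at 4 h. The corresponding Cxcl9 steps were 2.46 (adjusted p = 0.0260) and 1.84, which did not pass (adjusted p = 0.0672). The first of these had an adjusted p of 0.0557, 0.113 or 0.137 without the KO 2 h, WT 1 h or WT 2 h array, 0.0831 if genotype was no block, and 0.0682 under limma's trend and robust options. The second passed without either 1 h array (0.0421).

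Cxcl16, which also acts as a scavenger receptor while it is on the membrane, had log2 levels of 7.25, 7.91, 8.39 and 9.37 in KO cells, against 7.33, 8.15, 8.95 and 9.78 in WT cells. Every later array was above every earlier one of the same genotype. It was 1.67-fold higher at 1 h (0.74 ± 0.14, limma, adjusted p = 0.0265), 2.60-fold at 2 h (adjusted p = 7.61e-04) and 4.86-fold at 4 h (adjusted p = 7.14e-05). The call at 1 h was lost without any single array of 0, 1 or 4 h, with adjusted p from 0.0535 to 0.186. On the other Cxcl16 probe set the rise from 0 to 4 h was 2.67 in KO and 2.96 in WT cells. It was 2.11 and 2.45 on the one used.

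The receptor Cxcr4 moved the other way. It had log2 levels of 12.14, 11.99, 10.25 and 7.78 in KO cells, against 11.90, 11.82, 9.62 and 7.68 in WT cells, with the 0 and 1 h arrays close together and the 2 and 4 h arrays well below them. The difference was -0.12 ± 0.16 at 1 h (limma, adjusted p = 0.690). Cxcr4 then fell by 1.97 between 1 and 2 h (adjusted p = 7.65e-04) and fell by 2.21 between 2 and 4 h (adjusted p = 5.13e-04). At 4 h its difference from 0 h was -4.29 ± 0.16 (adjusted p = 1.22e-05). In bulk RNA, fewer cells of a type and less RNA per cell cannot be told apart.

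The steps between stimulated times divided the 9 genes. Between 1 and 2 h, 5 rose and 1 fell, beside 7.71% and 14.6% of all genes. Leaving out single arrays moved this total to between 4 and 6, since Cxcl9 lost its call as above and Cxcl16 lost it without the KO 1 h, WT 1 h or WT 2 h array (adjusted p = 0.0908, 0.109 and 0.132). Between 2 and 4 h, 3 rose (Cxcl10, Cxcl11 and Cxcl16) and 3 fell (Cxcl1, Cxcl2 and Cxcr4), beside 11.3% and 9.72% of all genes. Leaving out single arrays moved this total of 6 between 2 and 4 h to between 3 and 7.

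**Figure D2:**
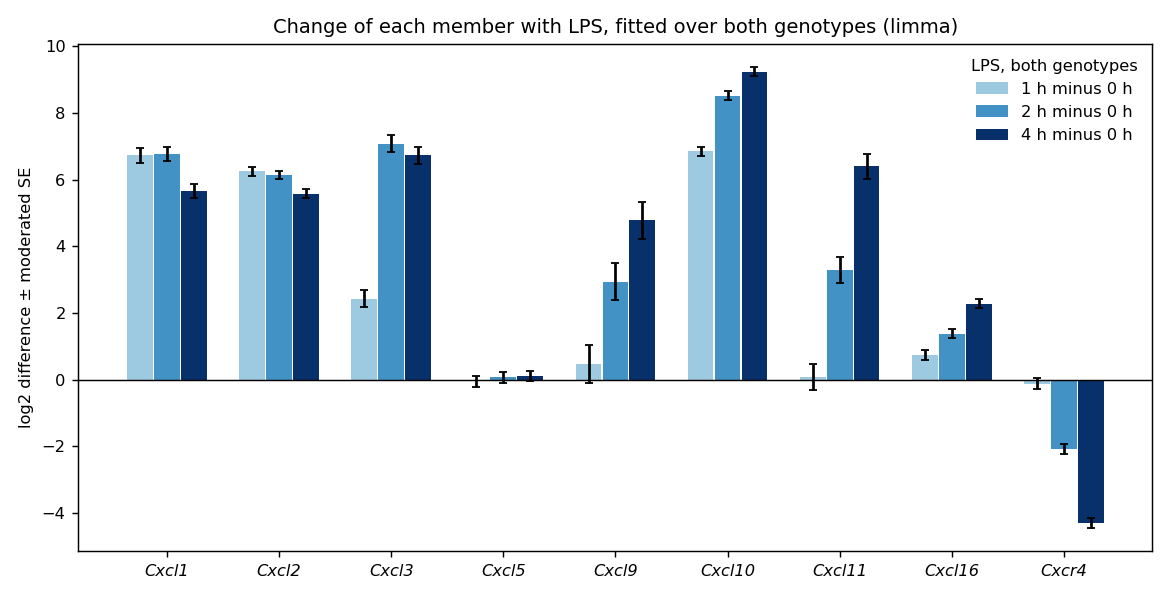
Log2 difference of each gene from 0 h (vertical axis) at 1, 2 and 4 h of LPS, from limma with genotype as a block, with bars of 1 SE. At 1 h Cxcl1, Cxcl2 and Cxcl10 lie above 6 while Cxcl9 and Cxcl11 lie at 0.47 and 0.08, and at 4 h Cxcl11 has reached 6.39 and Cxcr4 -4.29.

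Over all times together, none of the 9 genes passed the test between genotypes (0 of 9 in limma with time as a block), beside 4.75% of all tested genes that were higher and 8.72% that were lower in KO cells. At an unadjusted p under 0.05 there were 3, Cxcl11, Cxcl16 and Cxcr4, beside 31.6% of all genes. The median difference, KO minus WT, was 0.07 over the 9 genes and -0.04 over all genes. With limma's trend and robust settings 2 of the 9 passed, Cxcl16 (adjusted p = 0.0327) and Cxcr4 (0.0420).

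Cxcl11 had an average difference between genotypes of 0.89 ± 0.27 (limma, adjusted p = 0.0837), which was 0.56 without either 4 h array. KO minus WT was 0.47, 0.15, 1.04 and 1.90 at 0, 1, 2 and 4 h on the brighter probe set, the first of them at least 0.33 because WT was at background. At 4 h the level was 3.74-fold higher in KO than in WT cells, from 1 array each. On the dimmer probe set Cxcl11 read 3.29, 3.41, 3.78 and 4.82 in KO cells, against 3.25, 3.32, 3.56 and 3.74 in WT cells. Both probe sets were higher in KO cells at all 4 times.

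The Cxcl9 levels of the genotypes lay apart before 2 h and close together afterwards, from 1 array each. KO minus WT on the brighter probe set was 1.59 at 0 h and 1.95 at 1 h, or 3.01-fold and 3.86-fold higher in KO cells, and -0.03 and -0.31 at 2 and 4 h. The average was 0.80 ± 0.40 (limma, adjusted p = 0.226), but leaving out an array of 0, 1 or 4 h gave 0.53, 0.42 or 1.17, and averaging both probe sets gave 0.21. On the dimmer probe set Cxcl9 was at background in both genotypes until 2 h and at least 2.09-fold lower in KO than in WT cells at 4 h, so it could not show the early difference. Cxcl10, the third ligand of Cxcr3, differed by -0.18 to 0.25 at single times and by 0.07 ± 0.10 on average (adjusted p = 0.657).

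Cxcl16 was lower and Cxcr4 higher in KO cells at all 4 times, by small amounts. For Cxcl16, KO minus WT was -0.07, -0.24, -0.56 and -0.41 on the probe set used and -0.13, -0.38, -0.66 and -0.42 on the other, with an average of -0.32 ± 0.10 (limma, adjusted p = 0.0885). For Cxcr4 it was 0.24, 0.16, 0.64 and 0.09, with an average of 0.28 ± 0.11 (adjusted p = 0.139).

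The neutrophil-attracting ligands gave averages of 0.11 ± 0.15 for Cxcl1, 0.01 ± 0.09 for Cxcl2, -0.10 ± 0.19 for Cxcl3 and -0.16 ± 0.11 for Cxcl5, with adjusted p from 0.390 to 0.949 (limma). Cxcl3, KO minus WT, was 0.17 at 1 h, -0.35 at 2 h and -0.67 at 4 h, and both genotypes were at background at 0 h. For Cxcl1 the 3 probe sets disagreed at 0 h, where KO minus WT was 0.68 on the one used, 0.02 on the second and 1.27 on the third. The probe sets at 0.68 and 1.27 are of kinds that can match several transcripts, and the one at 0.02 is not. After LPS the 3 lay between -0.16 and 0.15.

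**Figure D3:**
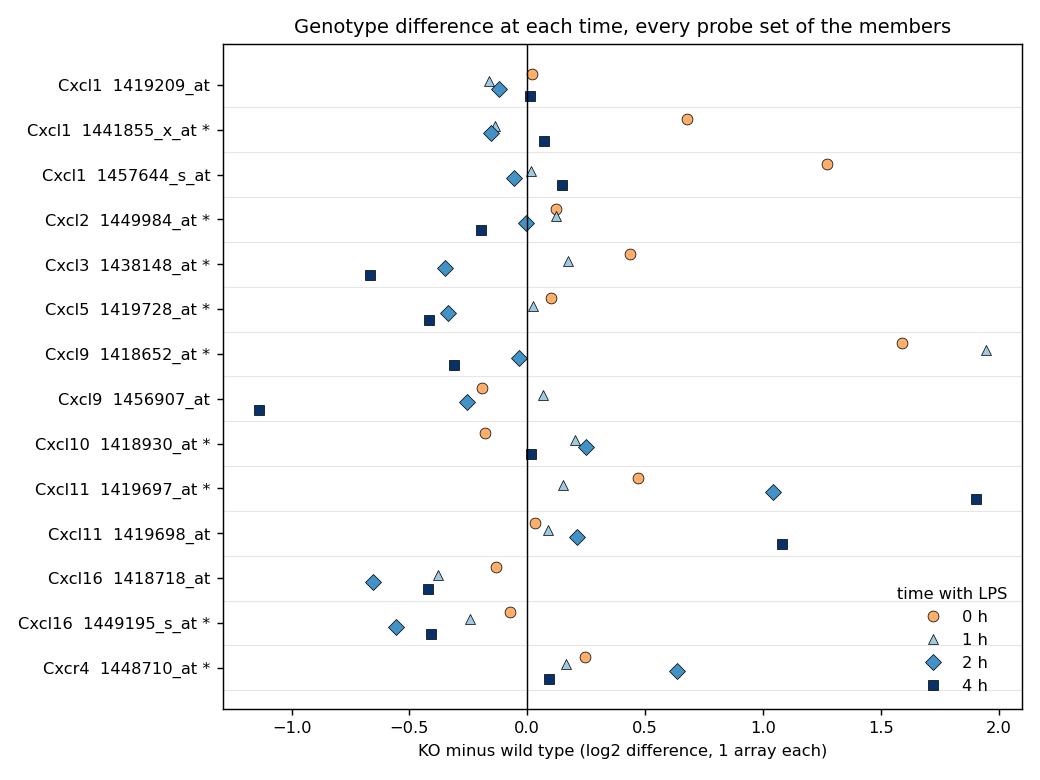
KO minus WT log2 difference (horizontal axis) at 0, 1, 2 and 4 h for each of the 14 probe sets, 1 array against 1 at each point, with a star at the probe set used for each gene. Cxcl11 reaches 1.90 at 4 h, Cxcl9 stands at 1.59 and 1.95 at 0 and 1 h, and both Cxcl16 probe sets lie below 0 throughout.

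An interaction term asked if KO and WT cells differed otherwise after LPS than before it, and 0 of the 9 genes passed, as did 0.00% of all genes in either direction. At an unadjusted p under 0.05 there was 1 of the 9, Cxcl1, beside 3.46% of all genes. For Cxcl1 the difference after LPS minus that at 0 h was -0.75 ± 0.20 (limma, adjusted p = 1.00). That value was -0.11 on the probe set that does not match several transcripts, and with trend and robust settings its adjusted p was 0.0459. The same quantity was -1.06 ± 0.90 for Cxcl9, -0.72 ± 0.35 for Cxcl3, which has only background levels at 0 h, and 0.56 ± 0.65 for Cxcl11.

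Markers of other cells differed between the genotypes beside these values. The log2 summed level of 7 resident peritoneal macrophage markers, which include the ligand Cxcl13, was 13.27 to 13.52 in KO and 11.23 to 11.72 in WT cells. That of 8 mesothelial and stromal markers was 8.70 to 9.35 in KO and 10.37 to 10.79 in WT cells, with Msln and Krt19 at background on all arrays. Neutrophil markers, 9 of 10 measured, summed to 10.85 to 12.02 in KO and 10.60 to 11.89 in WT cells, with Cxcr2 and Ltf at background on all arrays. S100a8 carried most of that sum, and other neutrophil markers, named after their values were seen, differed between genotypes. S100a9 was higher in KO cells by 3.12 (limma, adjusted p = 8.73e-05) and Mmp8 by 1.62, while Csf3r was lower, at -1.10 (adjusted p = 0.00915). T and NK cell markers, 4 of 6 measured, summed to 6.14 to 6.76 in KO and 5.64 to 5.89 in WT cells, and mast cell markers to 5.36 to 5.50 in KO and 5.73 to 6.56 in WT cells. Cd3e, named after its values were seen, carried most of the T and NK cell sum. It was higher in KO cells by 0.89 (limma, adjusted p = 0.0124). In KO cells the mast cell genes read between 2.65 and 3.48, close to background. B cell, dendritic cell and eosinophil markers summed to at most 6.15 on any array. For the Actb control, the 3′ probe set exceeded the 5′ one, a sign of RNA quality, by 3.11, 2.61, 2.52 and 2.30 at 0, 1, 2 and 4 h in KO cells, against 2.64, 2.35, 2.43 and 2.16 in WT cells. The same quantity for the Gapdh control was 3.31, 2.95, 3.04 and 2.90 in KO cells, against 3.01, 2.99, 3.16 and 2.98 in WT cells, higher in KO at 0 h and lower at the other times. Their part in the genotype and time differences was not tested.

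Among the remaining CXC ligands, most calls lay between genotypes. Of 7 listed, 7 were measured and 5 kept. Of the 5, 2 were higher and 1 lower in KO cells, beside 4.75% and 8.72% of all genes. The median difference was 0.26 against -0.04 over all genes, but 0.26 is the value of Ppbp alone. Ppbp lay close to background, reading at most 3.34 in KO and 3.18 in WT cells. Its WT arrays alone would not have passed the filter on low values. That median is therefore not read as a shift of the ligands. Cxcl13, a B cell attractant, had log2 levels of 11.88, 12.29, 12.16 and 12.09 in KO cells, against 10.26, 10.65, 10.65 and 10.75 in WT cells, a difference of 1.53 ± 0.09 (limma, adjusted p = 3.23e-04). Pf4, the platelet factor 4 gene of the Cxcl3 cluster, had 10.89, 10.72, 10.71 and 10.58 in KO cells, against 9.44, 9.37, 9.59 and 9.69 in WT cells, a difference of 1.20 ± 0.11 (adjusted p = 0.00212). For both genes no KO array overlapped the WT arrays, but how many of all genes are separated in this way was not counted. Cxcl14 had a difference of -0.48 (adjusted p = 0.0258), and it was also the only kept ligand of this list called with LPS, at 4 h (-0.46, adjusted p = 0.0323). The list thus had 0 calls at 1 and 2 h, where 3.85% and 12.0% of all genes were higher and 6.62% and 29.8% lower. At 4 h it had 0 higher and 1 lower, beside 14.4% and 29.4%. At an unadjusted p under 0.05, 4 of the 5 differed between genotypes, beside 31.6% of all genes. With LPS against 0 h, 1, 1 and 2 did at 1, 2 and 4 h, beside 25.3%, 50.9% and 51.1%.

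Of the receptors other than Cxcr4, 7 were listed, 6 measured and 4 kept. Only Ackr1, an atypical receptor that binds many chemokines without signalling, differed between genotypes, by 0.41 (limma, adjusted p = 0.0349). Of the 4, 1 was thus higher and 0 lower in KO cells, beside 4.75% and 8.72% of all genes. The median difference of the 4 was 0.45, but Cxcr6 and Ackr3 passed the filter on low values only through KO arrays. That median is therefore not read as a shift of the receptors. Ackr1 lay close to background, with log2 levels of 3.60, 3.72, 3.57 and 3.76 in KO cells. In WT cells it was at background at 0 h and read 3.35, 3.35 and 3.31 at 1, 2 and 4 h. None of the 4 receptors passed the test with LPS against 0 h, beside 3.85% of all genes higher and 6.62% lower at 1 h. The shares were 12.0% and 29.8% at 2 h, and 14.4% and 29.4% at 4 h. At an unadjusted p under 0.05 there were also 0 with LPS against 0 h. The shares of all genes were 25.3%, 50.9% and 51.1% at 1, 2 and 4 h. Between genotypes there were 3, Cxcr6, Ackr3 and Ackr1, beside 31.6%. For the interaction term there were 2, Cxcr3 and Ackr3, beside 3.46%. Cxcr2, through which the neutrophil-attracting ligands act, and Cxcr5 were at background on all 8 arrays. Ackr3, the atypical receptor for Cxcl11 and Cxcl12, was singled out after its values were seen. It had log2 levels of 5.66, 4.71, 3.01 and 3.01 in KO cells, against 2.66, 2.76, 2.79 and 2.94 in WT cells, and was above background only in the KO arrays of 0 and 1 h. Its average difference of 1.31 ± 0.49 did not pass (adjusted p = 0.131).

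All 8 genes for proteins that shed, cut or hold chemokines were kept. Sdc4, a heparan sulfate proteoglycan, had log2 levels of 9.55, 13.11, 13.51 and 13.14 in KO cells, against 9.90, 13.16, 13.45 and 13.30 in WT cells. It rose by 3.41 at 1 h, 3.75 at 2 h and 3.49 at 4 h (limma, adjusted p = 5.10e-05 at 1 h). Sdc1 rose by 0.44 at 2 h (adjusted p = 0.0207). At 4 h Adam10, a protease that sheds Cxcl16, fell by 0.75 and Mmp8 by 0.93, while Mmp9 rose by 0.41 (adjusted p = 0.0193). Of the 8 genes, 2 rose and 0 fell at 2 h, beside 12.0% and 29.8% of all genes. At 4 h 2 rose and 2 fell, beside 14.4% and 29.4%. Between genotypes Mmp8 was higher in KO cells (1.62, adjusted p = 0.00114), while Mmp9 (-1.68, adjusted p = 1.44e-04) and Sdc1 (-1.02, adjusted p = 0.00114) were lower. That is 1 higher and 2 lower of the 8, beside 4.75% and 8.72% of all genes.

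**Figure D4:**
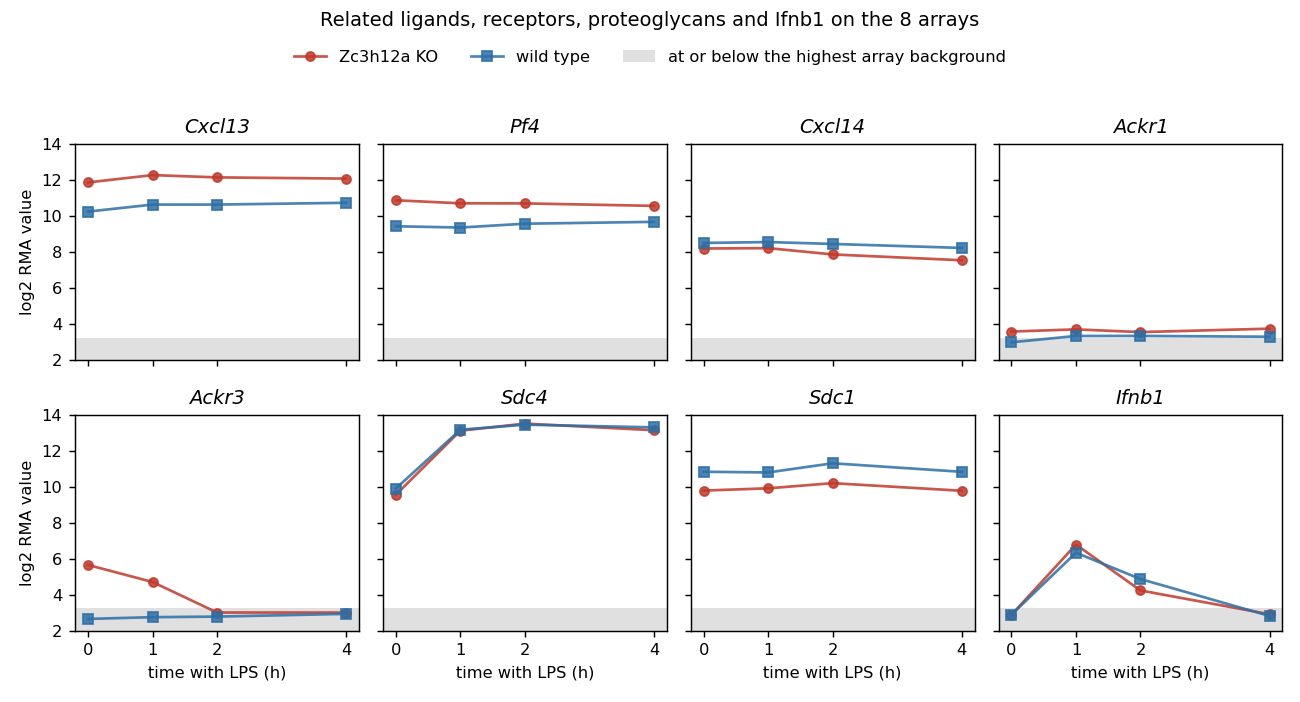
Log2 RMA level (vertical axis) of other CXC system genes at 0, 1, 2 and 4 h of LPS (horizontal axis), 1 point per array, KO and WT as separate lines. Cxcl13 and Pf4 are higher in KO than in WT cells at every time, Sdc4 rises in both genotypes, and Ifnb1 is highest at 1 h.

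Of 24 genes of TLR4, NF-kappaB and interferon signalling, 21 were measured and kept. Between genotypes 0 passed in limma, and 3 had an unadjusted p under 0.05, beside 31.6% of all genes, with a median difference of -0.04. With LPS, 7 rose and 0 fell at 1 h (median 0.27), beside 3.85% and 6.62% of all genes, 13 rose and 3 fell at 2 h (median 1.22), beside 12.0% and 29.8%, and 12 rose and 1 fell at 4 h (median 0.99), beside 14.4% and 29.4%. Nfkbia, the inhibitor that NF-kappaB itself induces, rose by 2.41 at 1 h. Ifnb1, the interferon beta gene, had log2 levels of 2.88, 6.79, 4.24 and 2.92 in KO cells, against 2.90, 6.34, 4.87 and 2.83 in WT cells. It was above background at 1 and 2 h alone in both genotypes (limma, adjusted p = 4.12e-04 at 1 h). Irf1, an interferon regulatory factor, had 8.31, 10.64, 11.02 and 11.37 in KO cells, against 7.50, 10.60, 11.15 and 10.95 in WT cells.

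Patterns over the 8 arrays were set side by side as a description, since arrays of a time share their stimulation and any drift with time. Cxcl1 and Cxcl2 correlated at r = 0.996 with each other, Cxcl1 and Cxcl3 at 0.737, Cxcl9 and Cxcl11 at 0.929, and Cxcl11 and Cxcr4 at -0.960. Over all tested genes, Cxcl1 was most like Nlrp3 (r = 0.999), Pde4b and Cdkn1a, and Cxcl2 most like Tnf (0.999), Nfkbia and Tnfaip3. Cxcl3 was most like Rapgef2 (0.998), Pstpip2 and Rbpms. Cxcl10 was most like Ifit1 (0.998), Sod2 and Dusp16, Cxcl9 most like AW112010 (0.995), Ifnar2 and AA467197, and Cxcl11 most like Mafk, Atp11b and Oas1b (all 0.993). Cxcl16 was most like Hnrnpd (0.990), Car13 and Rhbdf2, and Cxcr4 most like Srpk2 (0.995), Fblim1 and Tbc1d15. For Cxcl5, near background, the highest r was 0.919, with Hpcal1.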

How the data were processed

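RNA of 8 macrophage samples was measured on 1 Affymetrix array each. The deposited table holds log2 values of 45101 probe sets, made by the authors with RMA per the submitters' processing notes, whose version and settings are not given in the sources used here. RMA quantile-normalizes the arrays, so a shift in total mRNA would not be seen. Platform annotation gave 34945 probe sets a single symbol, 932 several and 9211 none, and 13 control probe sets with a symbol were left out; 34741 Entrez IDs matched RefSeq GRCm38.p6, which changed 0 symbols. The probe set of highest mean stood for its gene, which was kept when its second-highest array reached 3.16, the median of all values. Number of unmapped value columns: 0.

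Contrasts were fitted over all 12540 kept genes with limma 3.58.1 in R 4.3.3, with genotype and time as terms (3 residual degrees of freedom) or also their interaction (2), adjusted by Benjamini-Hochberg over all genes at 0.05. Errors are moderated standard errors. With 1 array per group, differences at a single time have no test, p-values measure only the spread left by the additive fit, and precision is limited by the number of arrays. The fits were also run on simulated data, with independent noise at the fitted spread and set differences added. That checks the code and cannot show how well 1 array stands for its group. Background was the highest of 27 bacterial control probe sets on an array. Where all arrays of a group were at or below it, the fold is written "at least" and sets the brighter mean against the dim arrays, each raised to its background where lower.

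The genes and lists were chosen with earlier results of these data known. The rule named all 9 genes on each probe set, for each the 3 kept genes of highest Pearson correlation, any gene of the ligand, receptor and processing lists that passed a test, and Ifnb1, Irf1 and Nfkbia; a further item of the rule is not reported here. Promoter windows came from a RefSeq GRCm38.p6 table. Alternatives were cyclic loess, housekeeping centring, other filters, other probe set choices, trend and robust settings, no block and leaving out each array.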

Additional observations from a re-analysis of the deposited data

Results flagged for a closer look

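Ackr3 stood out because the signs of its LPS changes were opposite in the genotypes, although most of the arrays behind them were at background. Averaged over 1, 2 and 4 h, its change from 0 h in KO cells minus that in WT cells was -2.25 on the log2 scale. All KO arrays after 0 h lay below the KO 0 h array and all WT arrays after 0 h lay above the WT 0 h array, but every WT array and the KO arrays of 2 and 4 h were at background. The WT direction is therefore not measured, and -2.25 depends on background levels. The interaction term of limma tested the difference and it did not pass (adjusted p = 1.00). No group had a replicate, so no sample could be set against others of its group.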

How the results depend on the processing

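Of 974 values of the 9 genes under the alternatives, 906 kept their direction and their side of the threshold, 31 no longer passed, 6 newly passed and 31 changed sign, 0 of which belonged to a call. With trend and robust settings 2 of the 9 genes passed between genotypes and 1 passed for the changed difference. Signs turned for small values. With housekeeping centring these were Cxcl2 between genotypes (-0.039) and between 1 and 2 h (0.073), Cxcl5 and Cxcr4 at 1 h (0.093 and 0.027) and the changed difference of Cxcr4 (-0.0057), and Cxcl1 between genotypes was -0.062 on the probe set that does not match several transcripts. Leaving out single arrays gave -0.075 to 0.20 for Cxcl1, -0.027 to 0.080 for Cxcl2 and -0.28 to 0.087 for Cxcl3 between genotypes. At 1 h it gave -0.22 to 0.12 for Cxcl5, -0.29 to 1.24 for Cxcl9 and -0.41 to 0.58 for Cxcl11, and for Cxcl5 -0.10 to 0.24 at 2 h, -0.063 to 0.28 at 4 h and -0.13 to 0.21 between 2 and 4 h. Between 1 and 2 h it gave -0.13 to 0.22 for Cxcl1, between 2 and 4 h -0.73 to 0.025 for Cxcl3, and -0.12 to 0.15 for the changed difference of Cxcr4. The count of the 9 genes called between 2 and 4 h lay between 3 and 7.

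Of all genes, 1690 were called between genotypes, against 150 without the time block and 597, 1237, 700 and 942 without either array of 0, 1, 2 and 4 h. Leaving out single arrays gave 454 to 1086 calls at 1 h, 3141 to 5248 at 2 h, 3951 to 5425 at 4 h, 1201 to 2613 between 1 and 2 h and 1331 to 2471 between 2 and 4 h. Without the genotype block, 614 in place of 1313 were called at 1 h, 3383 in place of 5239 at 2 h, 1262 in place of 2794 between 1 and 2 h and 1269 in place of 2631 between 2 and 4 h. The changed difference had 0 calls, 434 at an unadjusted p under 0.05, 15 with trend and robust settings and 6 without either 1 h array. Housekeeping centring, with 9 genes measured, moved the all-gene median to 0.08, 0.23 and 0.34 at 1, 2 and 4 h and the calls to 614 higher and 422 lower, 4807 and 2054, and 6142 and 2078; relative to that median Cxcl16 at 4 h was 2.34, against 2.40 as deposited, and Cxcr4 was -4.23, against -4.18. No paired analysis by replicate number was possible because each group has 1 array; the time block already sets the KO and WT arrays of a time against each other. The changed difference could not be fitted with a 0 h array left out, and levels near background limit Cxcl5, the 0 h levels of Cxcl3 and Cxcl11 and the dimmer Cxcl9 probe set. The cause of these changes was not tested.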
